A study of Homo sapiens with 6 samples.

Results

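Zinc transporters move zinc ions across the membranes of a cell, and 10 of them were examined here in colorectal cancer cells depleted of the long noncoding RNA GMDS-AS1. The members were chosen by gene symbol, out of 60662 genes with a value, and with earlier results of these data known. They were 5 exporters (SLC30A1, SLC30A5, SLC30A6, SLC30A7 and SLC30A9) and 5 importers (SLC39A1, SLC39A4, SLC39A6, SLC39A7 and SLC39A10). RNA-seq was performed on HCT116, an established human colorectal carcinoma line, with 3 libraries from cells carrying a nontarget control shRNA (shCtrl; genotype labelled WT) and 3 from cells carrying GMDS-AS1 shRNA2 (genotype labelled GMDS-AS1 knockdown, KD). All 6 libraries came from cells stably transduced with a lentiviral pLKO.1 puro shRNA plasmid and grown in the same medium with 10% serum, and the labels call the replicates of each group biological. The comparison asks what GMDS-AS1 depletion does to the transcriptome, and it rests on 1 hairpin in 1 cell line.

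As background, the SLC30A proteins, also called ZnT, lower cytosolic zinc by carrying it out of the cell or into organelles. The SLC39A proteins, also called ZIP, raise cytosolic zinc by bringing it in from outside or releasing it from organelles. The transcription factor MTF1 senses zinc and binds metal response elements in the promoters of the metallothioneins, which bind zinc, and of SLC30A1. In the intestinal epithelium, from which colorectal carcinoma arises, SLC39A4 takes up dietary zinc.

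Levels are given as deposited, in TPM, a transcript abundance corrected for gene length and library total. Fold changes and tests were computed on log2(TPM + 1) after a further scaling between libraries (trimmed mean of M-values). Fold changes are KD minus shCtrl, and this log2 scale understates the change of genes at low TPM. The 100 most abundant genes took 44.6 to 45.6% of all TPM in shCtrl and 46.6 to 47.4% in KD. The scaling factors of KD and shCtrl differed by -0.28 on the log2 scale. How much of that the shares account for was not tested. The scaling matters for direction: the median log2 fold change of the 16901 genes tested was 0.024 after it and -0.20 on TPM as deposited. The targeted GMDS-AS1, listed as GMDS-DT, was at 1.66, 2.21 and 1.34 TPM in shCtrl and at 0.88, 0.91 and 0.79 TPM in KD. Its groups did not overlap, and its log2 fold change was -0.39 (SE 0.14, limma, adjusted p = 0.0475). This call was lost without any single library except shCtrl replicate 3, with adjusted p from 0.0775 to 0.144 in those 5 limma fits. The study separately measured GMDS-AS1 in shRNA-transduced lines, HCT116 with this hairpin among them, and reported a substantial decrease. Of 6 epithelial markers, 5 were above 10 TPM in every library and CEACAM5 was under 1 TPM. The summed epithelial level was 9163 to 9612 TPM in shCtrl and 3434 to 3542 TPM in KD, with the keratins KRT8 and KRT18 lower at log2 fold changes of -1.42 and -1.80 and KRT19 at -0.23. EPCAM, by contrast, was higher at 0.21 after scaling (limma, adjusted p = 0.049), and CDH1 was at 0.15 and not called, while the deposited means of both were lower in KD. Of the markers of other cell types, 3 of 4 for leukocytes (PTPRC at 0 throughout), 3 of 4 for fibroblasts and 3 of 3 for endothelial cells were under 1 TPM, and their summed levels in shCtrl and KD were 6.46 to 8.42 and 6.89 to 8.60 TPM, 12.9 to 14.6 and 10.1 to 11.0 TPM, and 0.48 to 0.94 and 0.01 to 0.39 TPM, respectively. The part of these markers in the results below was not tested. In bulk RNA, fewer cells of a kind and less RNA per cell cannot be told apart.

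The plasma membrane exporter SLC30A1 fell in KD cells, and 4 members rose: the secretory pathway exporters SLC30A5 and SLC30A6 and the importers SLC39A6 and SLC39A7. All 10 members passed the filter on low values (0.5 TPM or more in 3 or more libraries), and 5 were called at an adjusted p under 0.05 in limma. Among all genes tested, 54.5% were called, 30.1% higher and 24.4% lower, so the share of members called was close to that background. The median log2 fold change of the members was 0.13, against 0.024 for all genes. No member reached a 2-fold change on the log2(TPM + 1) scale, whether called or not. For SLC30A1, the ratio of the TPM means was 0.472 as deposited and 0.573 after scaling. Of all genes, 7.11% were called with a change of at least 2-fold on the log2(TPM + 1) scale, 3.95% in the lower direction. The deposited TPM of the groups did not overlap for 7 members, against 63.7% of all genes tested. Without the added scaling, the calls differed: SLC30A6 and SLC39A6 were higher, SLC30A1, SLC30A9, SLC39A1 and SLC39A4 were lower, and 3 calls were shared with those above.

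**Figure D1:**
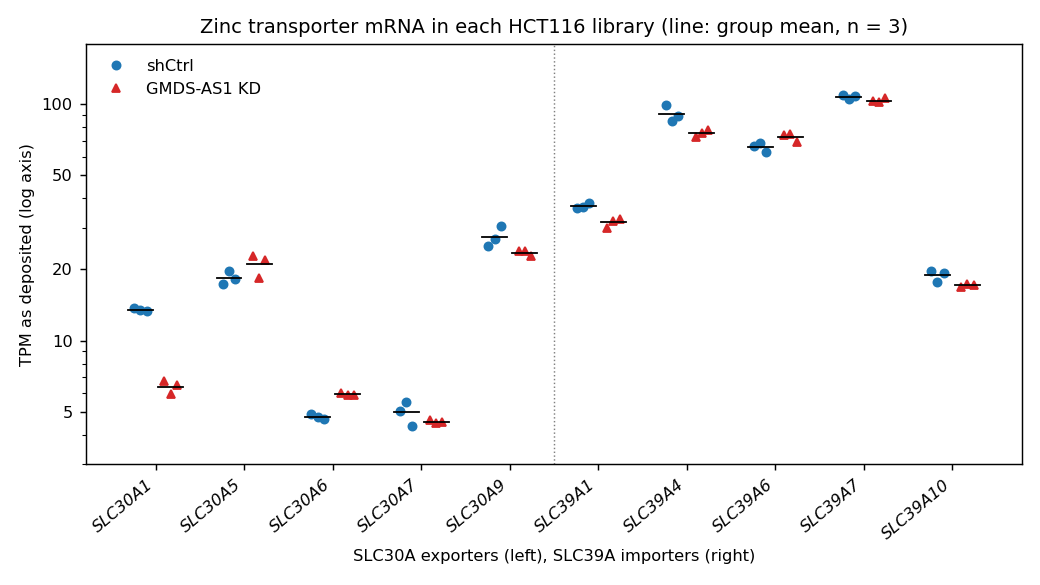
Deposited TPM (log axis) of the 10 zinc transporters in the 3 shCtrl and the 3 GMDS-AS1 KD libraries; each point is 1 library and the bars mark the group means. The SLC30A1 points of KD lie at 5.92 to 6.73 TPM, under the shCtrl points at 13.38 to 13.76 TPM, while the points of SLC30A5, SLC30A7 and SLC39A7 overlap between groups.

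SLC30A1 (ZnT1), the main zinc exporter of the plasma membrane, is encoded at chr1:211571568-211578742 (GRCh38, minus strand). It was at 13.76, 13.42 and 13.38 TPM in shCtrl and at 6.73, 5.92 and 6.49 TPM in KD. Every KD library was under every shCtrl library, with means of 13.5 ± 0.209 and 6.38 ± 0.416 TPM (SD, n = 3 each), a ratio of 0.472. After scaling, the log2 fold change was -0.73 (SE 0.064, 95% interval -0.88 to -0.57, limma, adjusted p = 0.000105). The fall was a call under every scaling tried, with a log2 fold change of -0.98 on TPM as deposited, and the value lay at percentile 8.67 of the log2 fold changes of all genes tested. Ranked by TPM within each library, which no scaling alters, SLC30A1 moved from percentiles 58.4 to 59.0 in shCtrl to percentiles 45.8 to 47.9 in KD.

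The promoters of the members were searched for the core of the metal response element, TGCACNC or TGCGCNC on either strand, because MTF1 binds it. The RefSeq sequences (GRCh38.p14) run from 250 bases before to 50 bases after each start site. Of 35116 such promoters of all genes, 29.6% held at least 1 core and 8.6% held at least 2. A promoter was matched for 9 of the 10 members, at 11 start sites, all but SLC39A4. The RefSeq start of SLC30A1 lies 419 bases upstream of the GENCODE v29 gene start given above, so both of its windows lie outside those gene coordinates. The promoter of SLC30A1 held 2 cores, and those of SLC30A6 and SLC39A6 held 1 each. These 4 are shown as 30-base windows, 5′ to 3′ on the strand of the gene, because their genes are members that were called. Capitals mark the core, which reads on the opposite strand in SLC30A1 and SLC30A6, and positions are those of the first core base relative to the start site.
SLC30A1 at -49 (chr1:211579192-211579221): acgggggttccGAGTGCAaagcaaagtttt
SLC30A1 at 25 (chr1:211579119-211579148): gagaccgggccGAGTGCAgctgccgtggcc
SLC30A6 at -128 (chr2:32165725-32165754): cttccgccacgGAGTGCAgggacagccggg
SLC39A6 at -17 (chr18:36129339-36129368): ccccgcggcgcTGCGCGCggcggtaattag

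The same 7 bases stood in both SLC30A1 cores and in that of SLC30A6, and the first gene was lower and the other higher in KD. A single core was also found at 1 of the 2 start sites of SLC39A1, at -236, and at 1 of the 2 of SLC39A10, at 34. No core was found in the windows of SLC30A5, SLC30A7, SLC30A9 or SLC39A7. Counted as bases upstream of the GENCODE v29 gene start, the RefSeq starts of SLC30A5 and SLC39A7 lie at -368 and -422. These lie downstream, so the windows did not cover the GENCODE starts of these genes. The same holds for start 2 of SLC39A1, at -4647, and for both starts of SLC39A10, at -80981 and -81249. For comparison, the promoters of the metallothioneins MT2A and MT1X held 8 and 4 cores. Those of MT1H, MT1B and MT4, which did not pass the filter on low values, held 8, 3 and 3. No promoter was matched for MT1E or MT1F. A core in a window describes the letters only, and no binding was measured.

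**Figure D2:**
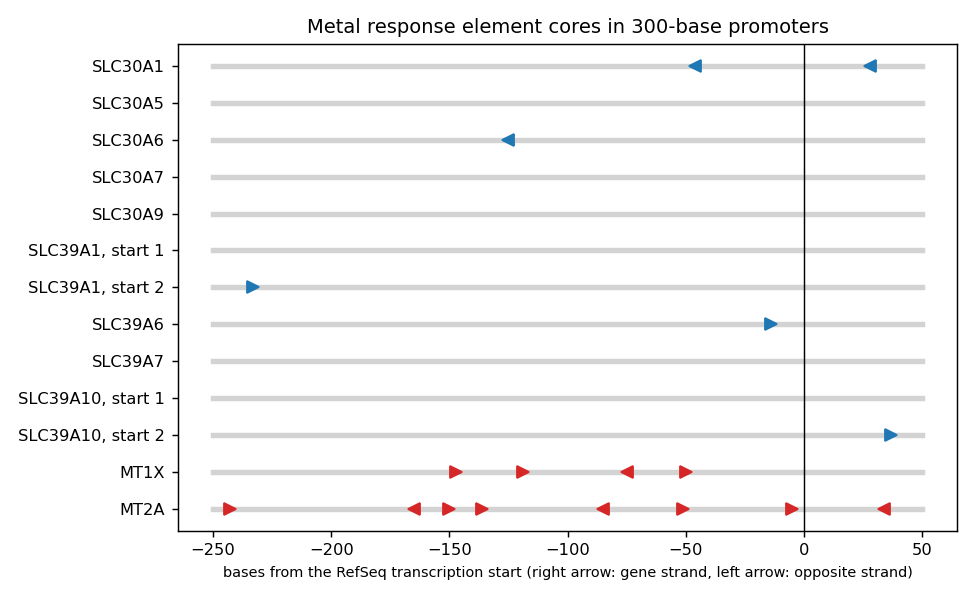
Positions of metal response element cores (7 bases) in the RefSeq promoters of the members and of MT1X and MT2A, in bases from the start site; each arrow is centred on 1 core and points right on the strand of the gene and left on the opposite strand. SLC30A1 has 2 arrows, for the cores that start at -49 and 25, whereas MT2A has 8 along its promoter.

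SLC30A5 and SLC30A6 form a heterodimer that loads zinc into the early secretory pathway, where enzymes such as alkaline phosphatases receive it. SLC30A5 (chr5:69093646-69131069, plus strand) was at 17.32, 19.8 and 18.14 TPM in shCtrl and at 22.71, 18.44 and 21.87 TPM in KD. KD replicate 2 lay within the shCtrl range, so the groups overlapped. Its log2 fold change was 0.44 (SE 0.084, 95% interval 0.24 to 0.64, limma, adjusted p = 0.00402). On TPM as deposited it was 0.18 and no longer a call (limma, adjusted p = 0.134). SLC30A6 (chr2:32165841-32224379, plus strand) was at 4.88, 4.75 and 4.67 TPM in shCtrl and at 6.02, 5.91 and 5.89 TPM in KD. All KD libraries were above all shCtrl libraries, and the replicates of each group lay close together. Its log2 fold change was 0.50 (SE 0.069, 95% interval 0.34 to 0.67, limma, adjusted p = 0.000885) and remained a call at 0.27 on TPM as deposited (limma, adjusted p = 0.0156). Within each library, the ratio of SLC30A5 to SLC30A6 TPM, which does not depend on scaling, was 3.55, 4.17 and 3.88 in shCtrl and 3.77, 3.12 and 3.71 in KD, and these ranges overlapped.

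SLC30A7 transports zinc into the Golgi as a homodimer, and SLC30A9 exports zinc from mitochondria. SLC30A7 (chr1:100896076-100981753, plus strand) was at 5.05, 5.48 and 4.37 TPM in shCtrl and at 4.6, 4.5 and 4.52 TPM in KD. The KD libraries lay inside the wider shCtrl range, and the log2 fold change was 0.13 after scaling and -0.10 on TPM as deposited, with neither a call (limma, adjusted p = 0.267 and 0.388). SLC30A9 (chr4:41990472-42090457, plus strand) was at 25.2, 26.82 and 30.53 TPM in shCtrl and at 23.87, 23.99 and 22.79 TPM in KD. Its deposited levels did not overlap and were lower in KD, yet the log2 fold change after scaling was 0.06 (95% interval -0.14 to 0.25, limma, adjusted p = 0.583). On TPM as deposited it was -0.21 (limma, adjusted p = 0.0437), so the direction and the call of SLC30A9 turned with the scaling.

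Among the importers, SLC39A6 and SLC39A10 form a heteromer at the plasma membrane. SLC39A6 (chr18:36108532-36129385, minus strand) was at 66.61, 68.92 and 62.97 TPM in shCtrl and at 74.25, 75.0 and 69.58 TPM in KD. Its lowest KD library was just above its highest shCtrl library. Its log2 fold change was 0.42 (SE 0.050, 95% interval 0.30 to 0.53, limma, adjusted p = 0.000463), and 0.14 on TPM as deposited (limma, adjusted p = 0.0424). SLC39A10 (chr2:195575977-195737702, plus strand) was at 19.8, 17.76 and 19.37 TPM in shCtrl and at 16.87, 17.32 and 17.21 TPM in KD. The groups did not overlap as deposited, but the log2 fold change was 0.13 after scaling (SE 0.059, 95% interval -0.01 to 0.27, limma, adjusted p = 0.109) and -0.14 on TPM as deposited. The ratio of SLC39A6 to SLC39A10 within each library was 3.36, 3.88 and 3.25 in shCtrl and 4.40, 4.33 and 4.04 in KD. All KD ratios were above all shCtrl ratios, with means of 4.26 ± 0.190 and 3.50 ± 0.336 (SD, n = 3 each), so relative to SLC39A10 the level of SLC39A6 was higher in KD under any scaling.

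SLC39A7 releases zinc from the endoplasmic reticulum and Golgi into the cytosol once it is phosphorylated by the kinase CK2. It was the most abundant member (chr6:33200445-33204439, plus strand), at 109.51, 105.75 and 108.05 TPM in shCtrl and at 102.82, 101.98 and 105.82 TPM in KD. The groups overlapped as deposited, with the KD mean lower, and SLC39A7 was a call only after scaling: the log2 fold change was 0.22 (SE 0.029, 95% interval 0.15 to 0.29, limma, adjusted p = 0.000671) and reversed to -0.06 on TPM as deposited (limma, adjusted p = 0.152). Its exons overlap those of RXRB on the opposite strand over 8.58% of its exonic bases. RXRB was at means of 39.5 TPM in shCtrl and 23.5 TPM in KD. The library kit was not stated to mark strand, so reads in that stretch cannot be told apart.

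SLC39A4, mutated in the inherited zinc deficiency acrodermatitis enteropathica, and SLC39A1, a widely expressed importer, are both found at the plasma membrane. SLC39A4 (chr8:144409742-144416895, minus strand) was at 99.0, 84.59 and 89.42 TPM in shCtrl and at 72.87, 75.24 and 77.65 TPM in KD. SLC39A1 (chr1:153959099-153968184, minus strand) was at 36.37, 36.64 and 38.21 TPM in shCtrl and at 29.94, 32.16 and 32.78 TPM in KD. The deposited levels of both were lower in every KD library than in any shCtrl library. After scaling, the log2 fold change of SLC39A4 was 0.0085 (95% interval -0.13 to 0.15, limma, adjusted p = 0.917), against -0.27 on TPM as deposited (limma, adjusted p = 0.00806). That of SLC39A1 was 0.05 after scaling (95% interval -0.07 to 0.17, limma, adjusted p = 0.444) and -0.22 as deposited (limma, adjusted p = 0.00692). Whether these importers were lower in KD was therefore set by the scaling. The gene model of SLC39A1 shares 60.83% of its exonic bases with AL358472.7 on the same strand, which was listed at 0, and 8.26% with CREB3L4 on the opposite strand.

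**Figure D3:**
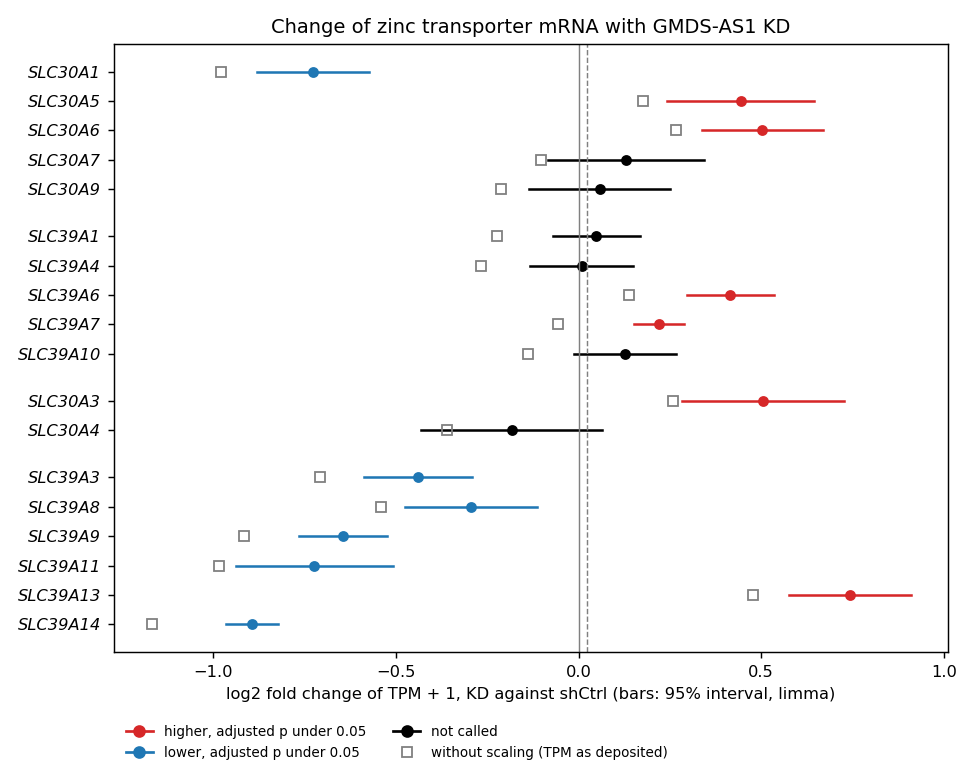
Log2 fold changes (KD minus shCtrl, on log2(TPM + 1) after scaling) of the members and of the other zinc transporters that were tested; each point is 1 gene, bars are 95% intervals, colours mark the calls, open squares show the value on TPM as deposited, and the dashed line is the median of all genes. SLC30A1 lies at -0.73 and SLC39A14 at -0.89, while SLC30A6 lies at 0.50; on TPM as deposited SLC30A7, SLC30A9, SLC39A1, SLC39A4, SLC39A7 and SLC39A10 turn negative.

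In shCtrl the order of levels, which can be compared between genes because TPM is per length, was SLC39A7, SLC39A4, SLC39A6, SLC39A1, SLC30A9, SLC39A10, SLC30A5, SLC30A1, SLC30A7 and SLC30A6 from high to low. Among neighbours in this order, the libraries of SLC39A10 and SLC30A5 overlapped, as did those of SLC30A7 and SLC30A6. In KD, SLC30A5 stood above SLC39A10, SLC30A6 stood above SLC30A7, and the libraries of SLC30A1 overlapped those of SLC30A6. The libraries of SLC39A4 and SLC39A6, separate in shCtrl, overlapped in KD.

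Within the exporters, SLC30A1 made up 20.8, 19.1 and 18.8% of the summed exporter TPM in shCtrl and 10.5, 10.1 and 10.5% in KD. The means were 19.6 ± 1.06% and 10.4 ± 0.266% (SD, n = 3 each), with no overlap. The ratio of SLC30A1 to SLC30A5 was 0.794, 0.678 and 0.738 in shCtrl and 0.296, 0.321 and 0.297 in KD. In contrast, the 5 importers together stood at 5.00, 4.46 and 4.47 times the 5 exporters in shCtrl and at 4.64, 5.13 and 4.92 times in KD, and these ranges overlapped. The sums hold the members only, and sums over all tested transporters were not computed. Of the 6 other SLC39A genes tested, 5 were called lower and 1 higher in KD, where 24.4% of all genes tested were called lower and 30.1% higher. Among them, SLC39A14 had means of 91.4 TPM in shCtrl and 40.1 TPM in KD. Of the 2 other SLC30A genes tested, 1 was called higher and 1 was not called. The ratios above describe the libraries and were given no test.

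**Figure D4:**
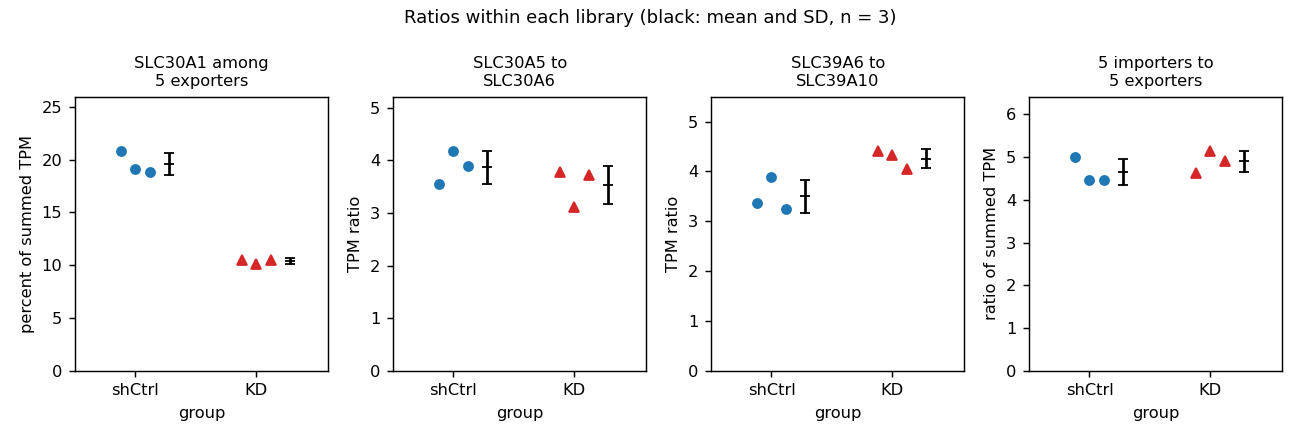
Ratios of member TPM within each library, which no scaling between libraries alters; points are the 3 libraries per group (blue circles shCtrl, red triangles KD), and black bars are the mean and SD. The share of SLC30A1 among the exporters is 18.8 to 20.8% in shCtrl and 10.1 to 10.5% in KD, and the ratio of importers to exporters overlaps between groups.

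Of the other SLC30A and SLC39A genes, 8 of 14 passed the filter, and 7 were called, 2 higher and 5 lower, with a median log2 fold change of -0.37. Among all genes tested, 54.5% were called, 30.1% higher and 24.4% lower. On TPM as deposited 7 were called, 1 higher and 6 lower, where 2756 of all 16901 genes were called higher and 6814 lower. SLC39A14, which carries zinc, iron and manganese and which IL-6 induces in the liver, was at 91.54, 91.75 and 90.87 TPM in shCtrl and at 39.7, 40.1 and 40.51 TPM in KD. Its log2 fold change was -0.89 (SE 0.030, limma, adjusted p = 1.60e-06), so an importer with a level like that of SLC39A4 in shCtrl was far under it in KD. SLC39A11, SLC39A9, SLC39A3 and SLC39A8 also fell, with log2 fold changes of -0.72, -0.64, -0.44 and -0.29 (limma, adjusted p from 5.92e-05 to 0.0146). SLC39A9 and SLC39A11 reside at the Golgi, and SLC39A8 also carries manganese. The importer SLC39A13 rose from 14.3 to 20.3 TPM (log2 fold change 0.74, limma, adjusted p = 0.000134), as did the vesicular exporter SLC30A3 from 6.69 to 8.20 TPM (0.50, limma, adjusted p = 0.00350). On TPM as deposited SLC30A3 was not a call (limma, adjusted p = 0.0622). SLC30A4, at 2.12 and 1.43 TPM, had a log2 fold change of -0.18 (limma, adjusted p = 0.181) and became a call at -0.36 on TPM as deposited (limma, adjusted p = 0.0217). SLC30A2, SLC30A8, SLC30A10, SLC39A2, SLC39A5 and SLC39A12 were under 0.5 TPM in all libraries.

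Among 23 other genes of zinc handling, 12 passed the filter and 11 were called, 4 higher and 7 lower, where 54.5% of all genes were called. On TPM as deposited 10 were called, 1 higher (MTF1) and 9 lower, where 2756 of all 16901 genes were called higher and 6814 lower. All 4 metallothioneins that were tested, of 11 listed, were lower, with a median log2 fold change of -2.35. MT2A was at means of 11612 TPM in shCtrl and 2103 TPM in KD (log2 fold change -2.18, limma, adjusted p = 9.96e-08), MT1X at 449.7 and 64.0 TPM, MT1E at 1321 and 459.8 TPM, and MT1F at 31.6 and 3.34 TPM. The sequences of these paralogs are similar, so the split of reads between them is uncertain. Their regulator MTF1 was at 10.18, 9.83 and 9.28 TPM in shCtrl and at 11.9, 12.02 and 12.54 TPM in KD, higher by 0.55 (SE 0.057, limma, adjusted p = 0.000224). In KD cells, SLC30A1 and the metallothioneins, which MTF1 is known to activate, were lower, and the transcript of MTF1 itself was higher.

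The zinc-sensing receptor GPR39 fell from 2.04 to 0.707 TPM (log2 fold change -0.68, limma, adjusted p = 0.00167). ALPL, a zinc-dependent alkaline phosphatase, was at 2.66, 2.64 and 2.6 TPM in shCtrl and at 0.26, 0.3 and 0.88 TPM in KD. Its log2 fold change was -1.18 (limma, adjusted p = 0.00131). ALPL passed the filter only through its shCtrl libraries, and KD replicates 1 and 2 lay under 0.5 TPM, so its call carries little weight. The transporters SLC30A5 and SLC30A6, which supply zinc to this class of enzyme, were higher after scaling. For SLC30A5 the groups overlapped, and it was not a call on TPM as deposited (limma, adjusted p = 0.134). ZNG1A, listed as CBWD1, which transfers zinc to the aminopeptidase METAP1, was at 48.6 and 50.8 TPM with a log2 fold change of 0.34 (limma, adjusted p = 0.00186), and METAP1 was at 66.1 and 70.6 TPM with 0.38 (limma, adjusted p = 0.0156). Neither was a call on TPM as deposited (limma, adjusted p = 0.292 and 0.431), and ZNG1A has near-identical copies that can share its reads. Of the CK2 subunits, CSNK2A2 fell by 0.21 on the log2 scale (limma, adjusted p = 0.0105). CSNK2A1 was at 0.14 after scaling and -0.14 on TPM as deposited, a call in opposite directions (limma, adjusted p = 0.0144 and 0.00965), and its call was lost without the variance trend (limma, adjusted p = 0.064). CSNK2B was at -0.01 after scaling (limma, adjusted p = 0.826) and became a call at -0.29 on TPM as deposited (limma, adjusted p = 0.00132).

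**Figure D5:**
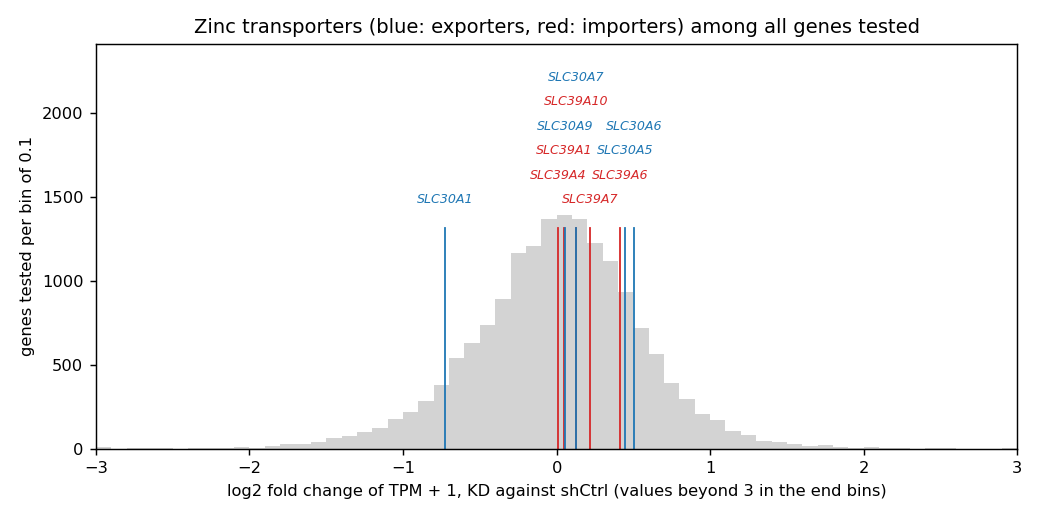
Distribution of log2 fold changes (KD minus shCtrl, after scaling) of all 16901 genes tested, in bins of 0.1 with values beyond 3 in the end bins, and a line for each exporter (blue) and importer (red) among the members. SLC30A1, at -0.73, lies on the left side at percentile 8.67, and the other 9 members lie at 0.0085 to 0.50; 6 of these 9 are negative on TPM as deposited.

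Sequence features that the choice of members did not use were read from the 3' untranslated region of 1 GENCODE v29 transcript per gene. The motif ATTTA, the core of AU-rich elements, which HuR can bind, was present in 67.7% of the 13058 tested protein-coding genes, with a median of 2. It occurred 17 times in the 3820 bases of SLC30A1, 9 times in SLC30A5, 13 times in SLC30A6, 23 times in SLC30A7, 15 times in SLC30A9, 6 times in SLC39A6 and 13 times in SLC39A10. It was not found in SLC39A1, SLC39A4 or SLC39A7. The median length over all genes was 1041 bases, and counts follow length. The member that fell and several members that rose or were not called carried many copies. Sites for the seed (bases 2 to 8) of the shRNA 2 antisense strand, GATGGTA, were present in 6.56% of the genes and in 0 of the 10 members. Sites for the seed of its sense strand, GTGGTCT, were present in 9.61% of the genes and, once each, in SLC30A7 and SLC39A10, neither of which was called.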

How the data were processed

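RNA of HCT116 cells was poly-A selected and sequenced in 3 shCtrl and 3 GMDS-AS1 shRNA2 libraries. The authors deposited TPM per gene for each library, estimated with Cufflinks and RSEM; the submitters' processing notes name Trimmomatic 0.27, TopHat2 2.1.1 and GRCh38.p13, and the annotation release is not given in the sources used here. TPM keeps no read total, so depth is unknown and no counting interval was computed. Every KD library had fewer genes above 0 TPM (24381 to 24814) than every shCtrl library (26061 to 26402). Whether this difference bears on the scaling factors was not tested. The count test named by the study could not be applied to these values. Of the listed genes, 2 had broken lines without a value and were left out.

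Scaling factors (trimmed mean of M-values; 30% of ratios and 5% of means trimmed, no weights) were computed on TPM. Genes reaching 0.5 TPM in 3 or more libraries were fitted on log2(TPM + 1) in limma 3.58.1 (R 4.3.3) with a variance trend, two-sided, with Benjamini-Hochberg adjustment over all 16901 genes and calls at an adjusted p under 0.05. The fit was tested on simulated data. The alternatives were TPM as deposited, upper-quartile scaling, a pseudocount of 0.1, other filters, no trend, a replicate block and each library left out. The labels call the replicates biological and the study's methods state that cell experiments were repeated biologically, without saying whether the libraries came from separate transductions, so p-values measure the spread between these samples.

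All 10 members, the targeted gene and the tested genes of the listed zinc transporter and zinc handling lists were named. The members and lists were chosen with earlier results of these data known. Positions are from GENCODE v29 (GRCh38) and promoters from RefSeq (GRCh38.p14).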

Additional observations from a re-analysis of the deposited data

How the results depend on the processing

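The scaling between libraries decided most. On TPM as deposited, 2 members were called higher and 4 lower, and the log2 fold changes reversed to -0.10 for SLC30A7, -0.21 for SLC30A9, -0.22 for SLC39A1, -0.27 for SLC39A4, -0.057 for SLC39A7, -0.14 for SLC39A10 and -0.14 for CSNK2A1. By construction, dropping the factors moves KD by -0.28 on the log2 scale before the pseudocount, and all genes split into 2756 called higher and 6814 lower, against 5087 and 4132 after scaling and 5514 and 3752 with upper-quartile scaling. With upper-quartile scaling CSNK2B reversed to 0.0387 and SLC39A10 became a call at 0.17 (limma, adjusted p = 0.0399). Requiring a change of at least 2-fold on the log2(TPM + 1) scale left 0 members called, 0 higher and 0 lower in limma. At any p, 0 members reached that change, although 5 had an unadjusted p under 0.05. The TPM means of SLC30A1 had a ratio of 0.472 as deposited and 0.573 after scaling.

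Leaving out each library kept 5 members called, 4 higher and 1 lower, in all 6 fits. The values ranged from -0.0083 to 0.14 for SLC30A9 (negative without shCtrl replicate 1), from -0.0545 to 0.0629 for SLC39A4 (-0.0545 without shCtrl replicate 2, -0.0019 without KD replicate 2 or 3) and from -0.0469 to 0.0051 for CSNK2B (0.0051, 0.0005 and 0.0028 without shCtrl replicate 2, KD replicate 2 and KD replicate 3). GMDS-AS1 ranged from -0.49 to -0.28 and lost its call in all but the fit without shCtrl replicate 3. It also lost it with upper-quartile scaling (-0.36, adjusted p = 0.0595), and at -0.39 with no filter (0.149) and with a group mean of at least 1 TPM (0.0725), all in limma. Of 130 alternatives of the members' log2 fold changes, 118 kept direction and call. The other filters, the fit without a trend and the replicate block leave a member's log2 fold change as it is by construction. In those fits only the call could move, so the count overstates how far direction was tried.

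Same-numbered libraries of the groups deviated from their group means with correlations of 0.029, -0.0377 and 0.0141, so no shared effect of the replicate number was seen. The labels do not say whether same-numbered libraries were handled together, and these correlations cannot settle it. With the replicate block, 8661 genes were called in place of 9219, the same 5 members among them, and GMDS-AS1 was not called at -0.39 (limma, adjusted p = 0.0577). Without read counts, the error of the lowest levels, GMDS-AS1 among them, cannot be divided into counting and biological parts.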
